A study of Ovis aries with 56 samples.

Results

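The ribosomal protein and translation factor genes on a sheep expression array were followed in the amygdala of treated and untreated twins. Members were all non-control probes whose gene name begins with RPL, RPS, EEF or EIF, or whose description names a cytosolic ribosomal protein or an elongation or initiation factor. This gave 22 genes with 37 probes, out of 14377 gene names or accessions with 15008 distinct probes on the array. Sorted by gene name or description, the large ribosomal subunit had 12 probes for 7 genes and the small subunit 14 probes for 9 genes. Elongation had 8 probes for 4 genes and initiation 3 probes for 2 genes. EEF1E1 was placed under elongation by its name alone, and its part in elongation was not checked. A translating ribosome joins a small subunit, which reads the message, to a large subunit, which links the amino acids. Initiation factors bring the small subunit to the start of a message, and elongation factors deliver each charged tRNA and move the ribosome along. Messages of ribosomal proteins and of several elongation factors share a pyrimidine tract at their start through which cells are known to control their translation together, and in neurons local protein synthesis is known to take part in lasting synaptic change.

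All animals were Scottish Mule Texel cross sheep of 50 weeks, and the amygdala RNA of each side was labelled separately. One twin of each same-sex pair, drawn at random at birth, carried goserelin acetate, a gonadotropin-releasing hormone agonist (GnRHa) whose continued presence lowers gonadotropin release. Its implants of 3.6 mg were renewed every 4 weeks from the age of 8 weeks in males and 28 weeks in females. The other twin was left without treatment and serves as the control. With these different starts, sex cannot be told apart from the start and length of treatment where treated females and males, or their GnRHa effects, are compared. Every array set 1 side of 1 animal against a pool of amygdala RNA of both sexes, both treatments and both sides, so every value below is on the log2 scale relative to the pool and carries no level that could be set against another gene. The direction of the ratios is not stated in the labels and was read as sample over pool: the transcript FE028749 stood at -3.51 ± 0.76 in female arrays (SD, n = 16) and at 0.85 ± 0.27 in male arrays (n = 21), and a transcript of 1 sex can stand far below a mixed pool but not far above it.

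Of 56 arrays, 41 from 25 animals were used. They were 10 arrays of GnRHa females (5 left, 5 right, from 5 animals) and 10 of control females (5 left, 5 right, from 7 animals). Males gave 12 GnRHa arrays (6 left, 6 right, from 7 animals) and 9 control arrays (5 left, 4 right, from 6 animals). The other 15 were left out because their spike-in RNAs, added in known proportions, departed from the pattern shared by the rest, and 3 of the 41 (replicate 6 of GnRHa males on both sides, 1 animal, and replicate 7 of control female right) were turned because their spike-ins ran the opposite way. Turned arrays were given the dye opposite to their label, so the turned control female array, labelled Cy3, counts as Cy5. On that count all left female arrays held the sample in the dye Cy3 and all right ones in Cy5. Side and dye thus cannot be told apart within that sex. The number of arrays limits the precision of every value, and in whole tissue fewer cells of a type and less RNA per cell cannot be told apart. Marker lists could be checked only in part: 4 of 7 astrocyte, 3 of 11 microglia, 3 of 7 endothelial, 2 of 8 blood and 1 of 4 choroid plexus genes were tested, and 0 of 11 neuronal and 0 of 7 oligodendrocyte genes.

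All 37 member probes were tested, and 35 of them had a value on all 41 arrays. The exceptions were the RPS15 probes, with values on 30 and 36 arrays. RPS15 lies at the decoding face of the small subunit. In the authors' deposited table the mean log2 brightness of the members ran from 5.34 for an RPS15 probe to 11.8 for RPL6. The only EEF1D probe stood at 6.28, the lowest after the RPS15 probes, and RPS6 at 10.4. Differences below are log2 differences ± SE from limma with p-values adjusted over 12915 probes, and called probes are those with an adjusted p under 0.05. Animals were separate individuals per the labels, and the arrays of both sides of an animal were treated as a block. Counts of arrays and their SDs below take in both sides of an animal where both were kept, and such arrays are not independent.

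Without GnRHa, 2 of the 37 members differed between females and males. EEF1D, which codes for a subunit of the exchange factor that recharges elongation factor 1 alpha with GTP, was higher in control females. RPS6, the small subunit protein that the kinases of the mTOR pathway phosphorylate, was lower in control females. In the same comparison 1.04% of all tested probes were called, 0.697% higher and 0.341% lower in females.

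EEF1D had a lowest, median and highest log2 ratio of -0.14, 0.23 and 0.70 in control females and of -0.75, -0.34 and 0.17 in control males. Each of the 10 female arrays exceeded the mean of the males and 6 exceeded every male array, although the ranges overlapped. The means were 0.24 ± 0.31 in control females (SD, n = 10) and -0.33 ± 0.30 in control males (n = 9). The fitted difference was 0.57 ± 0.12 (limma, adjusted p = 0.0272). With each of the 19 arrays left out in turn, the limma adjusted p lay between 0.0048 and 0.0734 and was under the threshold 14 times. It was not under it without control male right 2 or 3, control male left 4, control female right 2 or control female left 6, where the difference was 0.52 to 0.57.

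RPS6 had a lowest, median and highest log2 ratio of -0.33, -0.28 and 0.15 in control females and of -0.29, 0.21 and 0.52 in control males. Each of the 10 female arrays was under the mean of the males, and 4 were under every male array. The means were -0.17 ± 0.19 in control females (SD, n = 10) and 0.18 ± 0.27 in control males (n = 9). The fitted difference was -0.38 ± 0.09 (limma, adjusted p = 0.0367), which stayed under the threshold for 10 of the 19 arrays left out in turn. It did not without any of those 5 arrays, nor without control male left 3, control female left 3, control female right 3 or control female right 7, where the difference was -0.33 to -0.39. With all 56 columns as labelled the EEF1D difference was 0.41 (limma, adjusted p = 0.355) and the RPS6 difference was -0.06 (limma, adjusted p = 0.942).

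**Figure D1:**
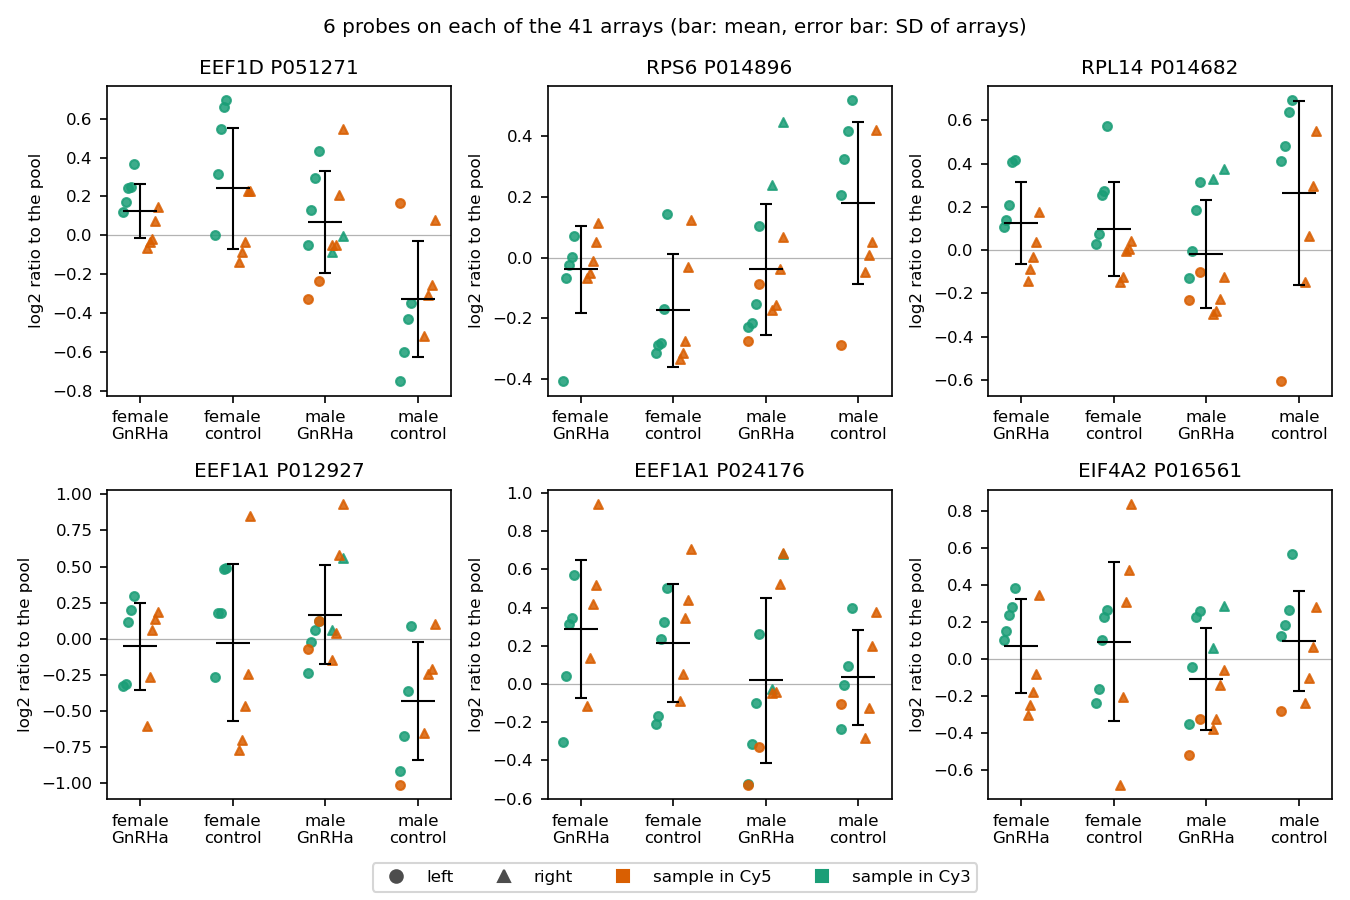
Log2 ratio to the pool (vertical axis) of 6 member probes on each of the 41 arrays, by sex and treatment, with left arrays as circles, right arrays as triangles and the dye of the sample in colour. Bars are means and error bars SDs of arrays. Control females lie above control males in the EEF1D panel and below them in the RPS6 panel, with overlapping ranges in both.

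The members stood on both sides of 0 in this comparison, 17 of the 37 higher and 20 lower in control females, with a median difference of -0.03 against 0.00 over all tested probes, and of 0.00 with array weights. RPS15A, a small subunit protein, stood at -0.24 ± 0.10 (limma, adjusted p = 0.205) and was below the male mean in 9 of 10 female arrays. RPL14 of the large subunit stood at -0.24 ± 0.10 and -0.22 ± 0.10 with its 2 probes (limma, adjusted p = 0.252 and 0.303). EEF1A1, elongation factor 1 alpha itself, stood at 0.37 ± 0.19 with the probe A_70_P012927 (limma, adjusted p = 0.347). None of these 4 probes passed.

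Markers of other cell types were set beside this comparison, and the ranges of all their means overlapped between the groups. The mean of the 3 microglial genes (CTSS, ITGAM and TYROBP) was 0.09 in control females (range of arrays -0.38 to 0.94) and -0.26 in control males (-0.46 to -0.12). The mean of the 4 astrocyte genes was 0.22 in control females (-0.27 to 0.66) and 0.09 in control males (-0.34 to 0.44), and that of the 3 endothelial genes was -0.02 (-1.38 to 1.91) and 0.38 (-0.41 to 1.60). EDNRB, an endothelin receptor that astrocytes also express, was the only one of these 10 genes called, at -0.90 (limma, adjusted p = 0.0272). It was also the only endothelial gene lower in control females. The other 2 were higher, and the median fitted difference of the 3 was 0.25, so the endothelial mean does not stand for most of its genes. TTR, the choroid plexus marker, ranged over arrays from -3.63 to 0.37 in control females and from -3.62 to 3.18 in control males. The part of these cell types in the EEF1D and RPS6 differences was not tested.

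With GnRHa in both sexes, the sex difference called 0 of the 37 members with limma, and 2 had an unadjusted p below 0.05, where 0.155% of all tested probes were called and 4.15% had such a p upward. The members' median difference was 0.10 against -0.01 over all tested probes, and 28 of 37 were higher in GnRHa females, where 48.7% of all probes were. EEF1D stood at 0.06 ± 0.11 and RPS6 at -0.00 ± 0.09 between GnRHa females and GnRHa males. The lowest p values upward belonged to RPL13A, a large subunit protein also known for a role outside the ribosome in silencing inflammatory messages, and to RPS12 of the small subunit. RPL13A stood at 0.19 ± 0.09 and RPS12 at 0.23 ± 0.11 (limma, adjusted p = 0.588 and 0.612). RPL13A was above the male mean in 10 of 10 arrays of GnRHa females. The lowest p values downward belonged to RPL6, at -0.14 ± 0.09, and to EEF1A1 (A_70_P012927), at -0.22 ± 0.18 (limma, adjusted p = 0.752 and 0.826). CTSS, a microglial protease, was higher in GnRHa females by 0.98 ± 0.18 (limma, adjusted p = 0.0110). The other 2 microglial genes were lower, and the median fitted difference of the 3 was -0.11. The mean of the 3 microglial genes, CTSS included, was 0.22 in GnRHa females (range of arrays -0.20 to 0.67) and -0.02 in GnRHa males (-0.52 to 0.57). The part of microglia in the members' values was not tested.

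On the left side alone, RPL6 was lower in females than in males with and without treatment. RPL6 is a large subunit protein and was the brightest of the members. In GnRHa females the left arrays had log2 ratios of -0.49, -0.65, -0.38, -0.57 and -0.52, against a lowest, median and highest of -0.29, -0.04 and 0.07 in GnRHa males. No female array reached the male range. In control females the left arrays had -0.78, -0.26, -0.37, -0.65 and -0.62, against 0.06, -0.23, -0.20, -0.23 and 0.17 in control males, and again the ranges did not overlap. The share of all tested probes without overlap was not counted for these small sets of arrays, so the lack of overlap cannot be weighed against it.

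The fitted RPL6 difference on the left was -0.45 ± 0.12 with GnRHa (limma, adjusted p = 0.0381) and -0.46 ± 0.12 without (limma, adjusted p = 0.0236). On the right it was 0.18 ± 0.12 with GnRHa and 0.19 ± 0.13 without (limma, adjusted p = 0.584 and 0.686), and the difference between the sides was not tested. Since all left female arrays were in Cy3, the left arrays in Cy3 were also set apart. The 10 such female arrays ran from -0.78 to -0.26 with a median of -0.55, and the 8 such male arrays from -0.23 to 0.17 with a median of -0.11. Of the members RPL6 was the only one whose female and male arrays did not overlap there, and over all tested probes 0.248% did not overlap. The fitted dye difference of RPL6 was -0.02 ± 0.10.

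In the left-side comparisons 1 of 37 members was called with GnRHa, where 2.19% of all tested probes were, and 3 of 37 without GnRHa, where 5.12% were. The 3 were RPL6, EEF1D and RPS6. EEF1D was higher in control females by 0.84 ± 0.16 on the left (limma, adjusted p = 0.00706) and stood at 0.31 ± 0.17 on the right (limma, adjusted p = 0.600). RPS6 was lower in control females, at -0.48 ± 0.12 on the left (limma, adjusted p = 0.0198) and stood at -0.28 ± 0.13 on the right (limma, adjusted p = 0.489). The left-side EEF1D difference passed in all 10 fits that left out 1 left control array, but not with all 56 columns as labelled, at 0.56, nor without the 4 arrays far out on the first principal component, at 0.71 (limma, adjusted p = 0.234 and 0.0771). That of RPS6 passed in 7 of 10 such fits, the exceptions being those without control male left 3 or 4 or control female left 6, at -0.42 to -0.45. It was lost in 4 of 13 other settings and stood at -0.24 with all 56 columns (limma, adjusted p = 0.688). That of RPL6 passed in 6 of 10 such fits without GnRHa and in 3 of 11 with it, and with all 56 columns as labelled it was -0.27 without GnRHa and -0.40 with it (limma, adjusted p = 0.637 and 0.489). The RPL6 call was lost without control male left 3 or 5 or control female left 3 or 6, at -0.39 to -0.47. With GnRHa it was lost without GnRHa male left 1, 5, 6 or 7 or GnRHa female left 3, 4, 6 or 7, at -0.42 to -0.46.

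GnRHa called 0 of 37 members in males with limma, where 0% of all tested probes were called. At an unadjusted p below 0.05 there were 3 members higher and 7 lower in GnRHa males, against 5.51% and 6.21% of all tested probes. The members tended to lie lower in GnRHa males: 28 of 37 had a difference below 0, where 49.7% of all probes did, and their median difference was -0.13 against 0.00 over all probes. With all 56 columns as labelled that median was -0.04, and with the twin pair as a fixed block -0.09. Among large subunit probes 11 of 12 were lower, among small subunit probes 9 of 14, among elongation probes 5 of 8 and among initiation probes 3 of 3. These probes share arrays and in part genes, and no test was made of them as a group. On left arrays the median over the members lay between -0.20 and 0.03 in GnRHa males and between -0.06 and 0.21 in control males, and on right arrays between -0.07 and 0.28 in GnRHa males and between -0.09 and 0.19 in control males. The ranges overlapped on both sides before the fitted dye difference was removed. With it removed, left arrays ran from -0.15 to 0.05 in GnRHa males and from 0.06 to 0.21 in control males, without overlap. Right arrays then ran from 0.10 to 0.31 in GnRHa males and from 0.05 to 0.32 in control males. The dye difference was fitted on these same arrays, and the gap on the left was not tested.

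RPL14 had the lowest p. With the probe A_70_P014681 its lowest, median and highest log2 ratio was -0.51, -0.14 and 0.35 in GnRHa males and -0.61, 0.45 and 0.75 in control males. The ranges overlapped, with 11 of 12 GnRHa arrays below the control mean, and the control array at -0.61 lay apart from the other 4 left control arrays, which ran upward from 0.45. The fitted difference was -0.39 ± 0.10 (limma, adjusted p = 0.0914), and the second probe gave -0.33 ± 0.10 (limma, adjusted p = 0.149). The fitted difference of the first probe with all 56 columns as labelled was -0.08 (limma, adjusted p = 0.965), and leaving out each array in turn gave a call for 2 of 21 arrays, at -0.45 without control male left 1 and -0.46 without control male right 5. With the twin pair as a random block it was -0.40 (limma, adjusted p = 0.0441), the only member called, and with the pair as a fixed block -0.35 (adjusted p = 0.285). Without control male left 1, EEF1D was also called, at 0.45 (adjusted p = 0.0485).

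Other large and small subunit members lay on the same side without passing. RPL10, which lines the tRNA path of the large subunit, stood at -0.19 ± 0.11, RPS15A at -0.24 ± 0.09 and RPS6 at -0.24 ± 0.09 (limma, adjusted p between 0.240 and 0.490). The initiation helicase EIF4A2, which unwinds the starts of messages and is a form of eIF4A abundant in brain, stood at -0.24 ± 0.13 and -0.31 ± 0.13 with its 2 probes (limma, adjusted p = 0.487 and 0.316). EIF4G1, the scaffold on which the cap-binding complex assembles, stood at -0.08 ± 0.19. RPL35A, RPS20, RPS26 and RPS27A, which codes for ubiquitin fused to a small subunit protein, lay between 0.01 and 0.10.

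The members highest in GnRHa males belonged to elongation. EEF1D had a lowest, median and highest log2 ratio of -0.33, -0.03 and 0.55 in GnRHa males and of -0.75, -0.34 and 0.17 in control males, and 11 of 12 GnRHa arrays lay above the control mean. Its difference was 0.39 ± 0.12 (limma, adjusted p = 0.151). EEF1A1 had, with the probe A_70_P012927, -0.24, 0.06 and 0.94 in GnRHa males and -1.01, -0.37 and 0.10 in control males, with 12 of 12 GnRHa arrays above the control mean. Its difference was 0.56 ± 0.18 (limma, adjusted p = 0.171), and the neighbouring probe A_70_P012926 gave 0.47 ± 0.18 (limma, adjusted p = 0.251). In all 4 comparisons of sex and treatment taken over both sides, 0 of 37 members had groups that did not overlap, where the share of all tested probes was 0.0232% for GnRHa in males, 0.0155% for GnRHa in females, 0.0697% for sex with GnRHa and 0.0465% for sex without.

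**Figure D2:**
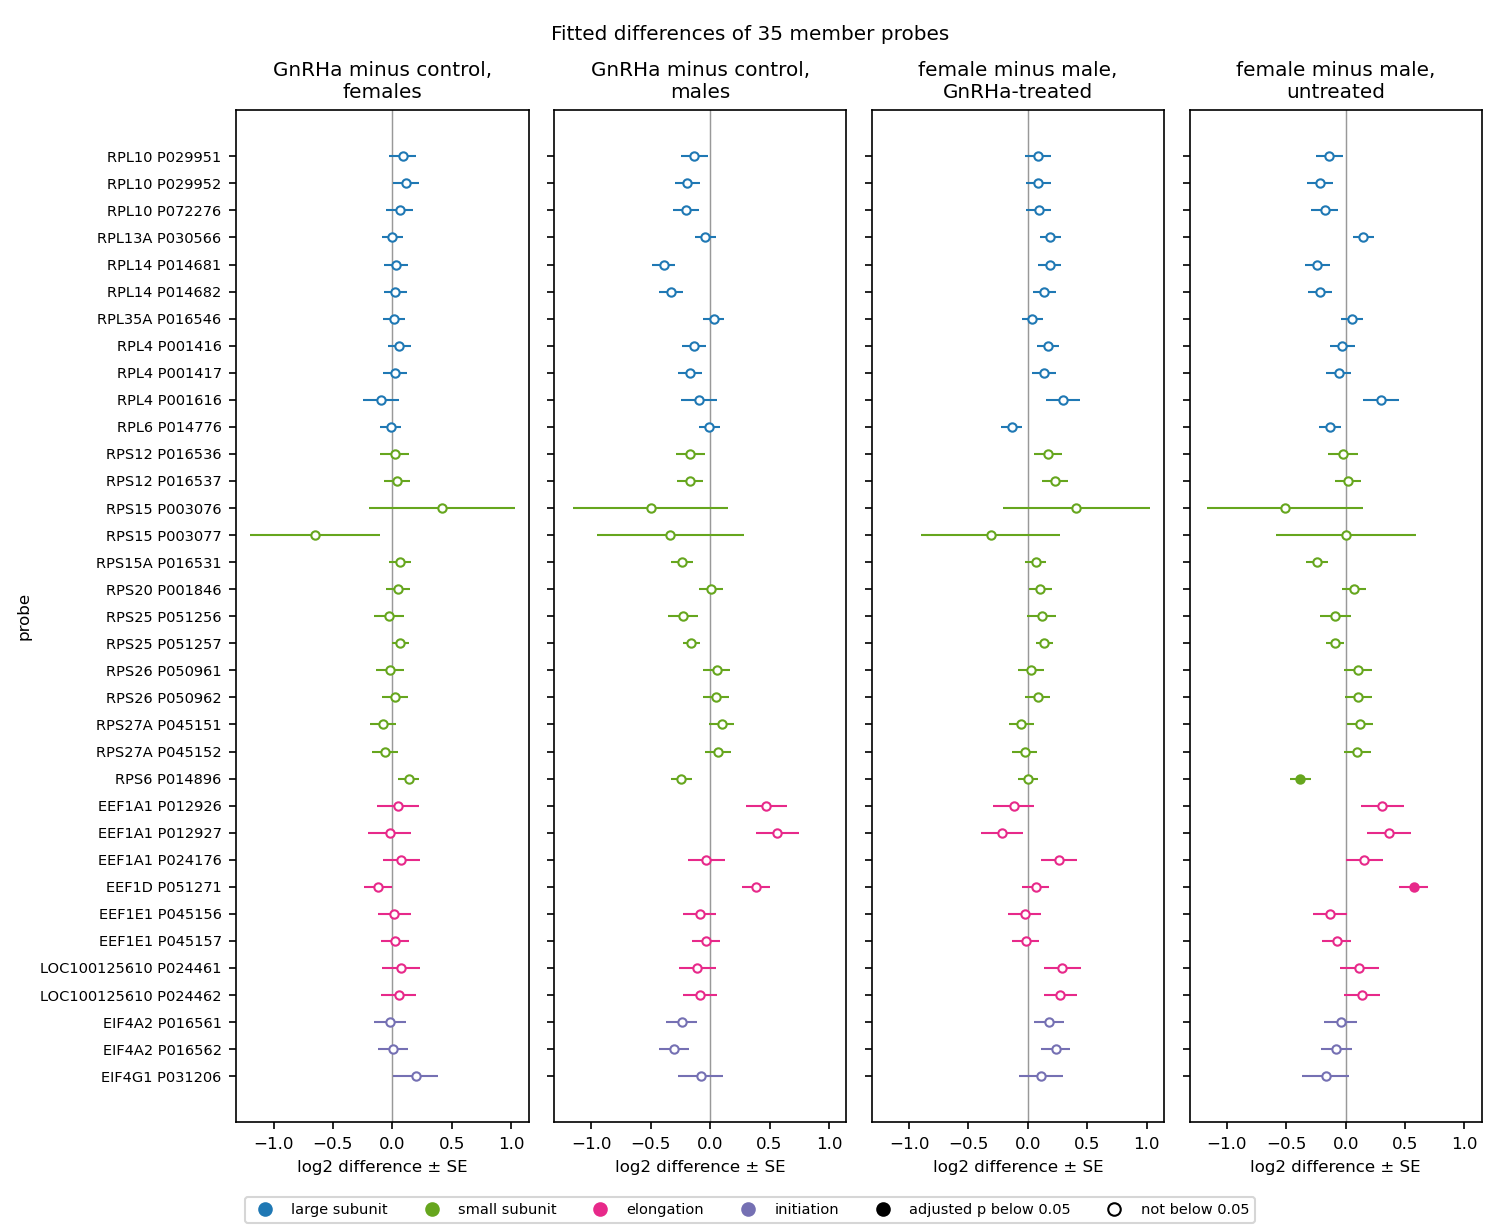
Fitted log2 difference with its SE (horizontal axis, the same scale in every panel) of 35 member probes in the 4 comparisons of treatment and sex, coloured by role. Filled points have an adjusted p below 0.05: EEF1D at 0.57 and RPS6 at -0.38 in untreated animals are the only ones.

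In females GnRHa called 0 of 37 members with limma, and 0 had an unadjusted p below 0.05, where 0% of all tested probes were called and 2.04% and 1.68% had such a p upward and downward. The members' median difference was 0.03 against -0.01 over all probes, and was -0.02 without the 4 arrays far out on the first principal component. In all, 26 of 37 members lay higher in GnRHa females, where 48.4% of all probes did. Their median absolute difference was 0.05, against 0.12 over all tested probes. In males it was 0.16, against 0.18 over all tested probes. RPS6 stood at 0.14 ± 0.09 and RPL10 at 0.11 ± 0.11 with the probe A_70_P029952, while EEF1D stood at -0.12 ± 0.12. The dim RPS15 probe A_70_P003077 stood at -0.65 ± 0.55 on 19 female arrays, and at 0.25 with all 56 columns as labelled.

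The difference between the GnRHa effects of the sexes, female minus male, called 0 of 37 members with limma, where 0% of all probes were called. At an unadjusted p below 0.05 there were 6 members above 0 and 2 below, against 3.89% and 3.82% of all tested probes. RPL14 stood at 0.42 ± 0.14 and RPS6 at 0.38 ± 0.12, whereas EEF1D stood at -0.51 ± 0.17 (limma, adjusted p = 0.481 in each case). With all 56 columns as labelled RPL14 stood at 0.06, RPS6 at 0.01 and EEF1D at -0.36. EEF1A1 stood at -0.59 ± 0.26 with A_70_P012927 (limma, adjusted p = 0.607). No member thus passed the threshold for a difference between the sexes in its GnRHa effect. Sex and the start of treatment cannot be told apart in this difference.

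Both twins were measured in 5 female and 5 male pairs. Their difference was taken after removing the fitted dye difference and averaging the sides kept. Where a twin had a single side kept, that side stood alone. This held in most male pairs and in some female pairs, so side and treatment are mixed in those differences. EEF1A1 (A_70_P012927) differed within the male pairs by 0.14, 0.38, 0.63, 0.86 and 1.11, GnRHa twin minus control twin, and within the female pairs by -0.58, -0.51, -0.17, -0.13 and 0.54. All 5 treated males were above their twin, and 4 of 5 treated females were below. EEF1D differed within the male pairs by 0.02, 0.03, 0.18, 0.21 and 0.77 and within the female pairs by -0.46, -0.35, -0.29, -0.03 and 0.12, again 5 of 5 males above and 4 of 5 females below.

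RPL14 (A_70_P014681) differed within the male pairs by -0.59, -0.57, -0.48, -0.07 and 0.06 and within the female pairs by -0.12, -0.02, 0.16, 0.24 and 0.32. RPS6 was lower in 4 of 5 treated males, with a median of -0.19, and higher in 4 of 5 treated females, with a median of 0.27. EIF4G1 was lower in 5 of 5 treated males, by 0.02 to 0.25, and higher in 4 of 5 treated females. Over the 37 probes, every male pair went one way for 5 probes (3 lower, 2 higher) and every female pair for 1, the RPS15 probe A_70_P003077. Over all tested probes with a value in every pair, 10.6% went one way in the male pairs and 4.49% in the female pairs. These pairs are the animals of the fit above and no further evidence for it.

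**Figure D3:**
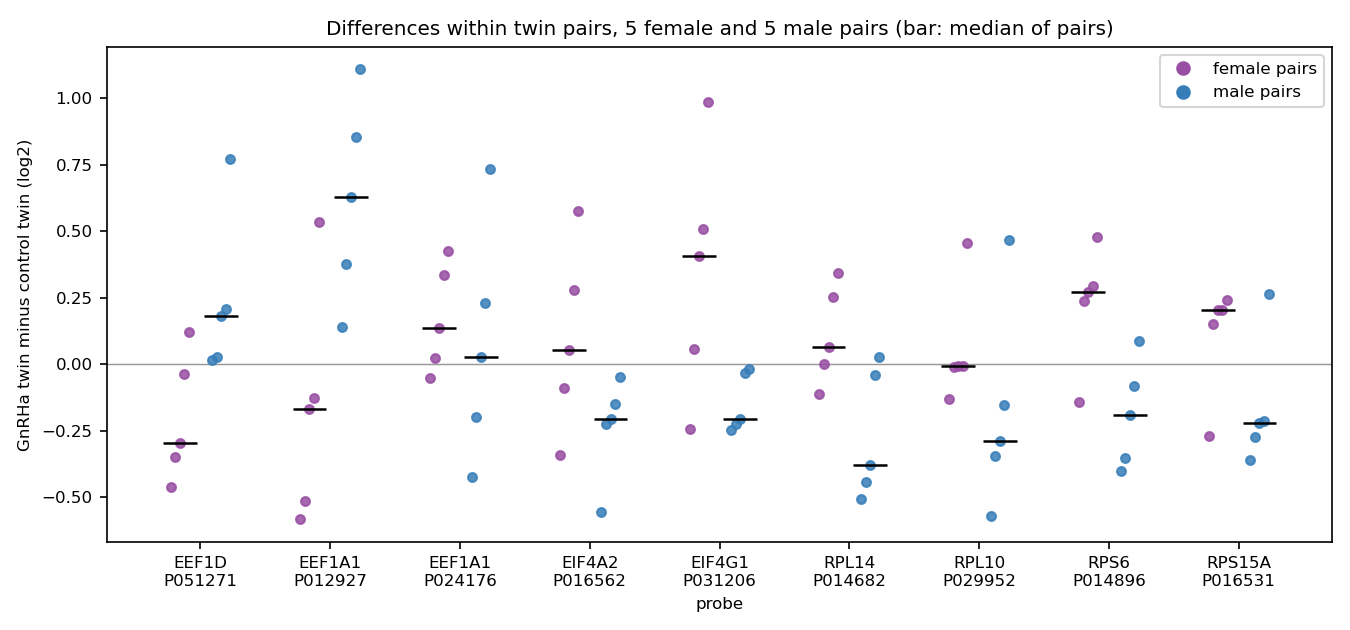
Difference between the GnRHa twin and its control twin (vertical axis, log2, dye difference removed, kept sides averaged) for 9 member probes in 5 female pairs and 5 male pairs. Each point is a pair and each bar the median of the pairs. For EEF1D and EEF1A1 P012927 all 5 male pairs lie above 0 and 4 of 5 female pairs below it.

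The mean of the endothelial markers was -0.30 in GnRHa males (range of arrays -1.34 to 0.38) and 0.38 in control males (-0.41 to 1.60). The mean of the microglial markers was -0.02 in GnRHa males (-0.52 to 0.57) and -0.26 in control males (-0.46 to -0.12), and that of the astrocyte markers was -0.07 (-0.50 to 0.64) and 0.09 (-0.34 to 0.44). None of these genes was called in that comparison with limma, and their part in the members' values was not tested.

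The 3 EEF1A1 probes did not move together. A_70_P012926 and A_70_P012927, named EEF1A1 in the files, correlated with each other at r = 0.92 over the 41 arrays. A_70_P024176, which RefSeq places in the same gene, correlated with them at only 0.30 and 0.17. It was the brightest of the 3, at a mean log2 brightness of 9.21 against 7.21 for A_70_P012926 and 6.73 for A_70_P012927. In GnRHa against control males it stood at -0.03 ± 0.15, where the other two stood at 0.47 and 0.56. It correlated instead at 0.91 and 0.82 with the 2 probes of LOC100125610, an elongation factor 1 alpha clone without a gene name in RefSeq, and elongation factor 1 alpha is known to have several near-identical gene copies. The EEF1A1 values above are therefore given by probe. In the other genes with several probes these correlated at 0.77 to 0.96, except RPS15 at 0.30 and RPS25 at 0.53.

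Members of different genes followed each other in a few sets. The correlations here are across arrays after removing group means and dye, describe pairs chosen after all were seen, and are not independent, since both sides of an animal and all probes of an array enter. Of 648 pairs of probes of different genes, 74 had r above 0.5 and 17 had r below -0.5, with a median of 0.10. The 5 genes RPL6, RPL35A, RPS20, RPS26 and RPS27A correlated at 0.45 to 0.83 over their 19 pairs of probes. With group means and dye left in, these pairs ran from -0.07 to 0.76. With both removed and without the 2 arrays farthest from the median of the first probe of a pair, they ran from 0.29 to 0.79. RPL4, LOC100125610 and the EEF1A1 probe A_70_P024176 correlated at 0.67 to 0.93. RPS6, RPS15A and RPL14 correlated at 0.52 to 0.69.

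EIF4A2 ran against the first of these sets. Its 2 probes correlated at -0.67 to -0.49 with RPL6, RPL35A, RPS20, RPS26 and RPS27A, with Spearman's rho from -0.71 to -0.44. They correlated at -0.67 to -0.62 with the EEF1A1 probes A_70_P012926 and A_70_P012927, and 16 of the 17 pairs below -0.5 held EIF4A2. Without the 2 arrays farthest from the median of the first probe of a pair, the range against the 5 ribosomal protein genes was -0.65 to -0.37. With RPL4 of the large subunit EIF4A2 correlated positively, at 0.42 to 0.55.

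**Figure D4:**
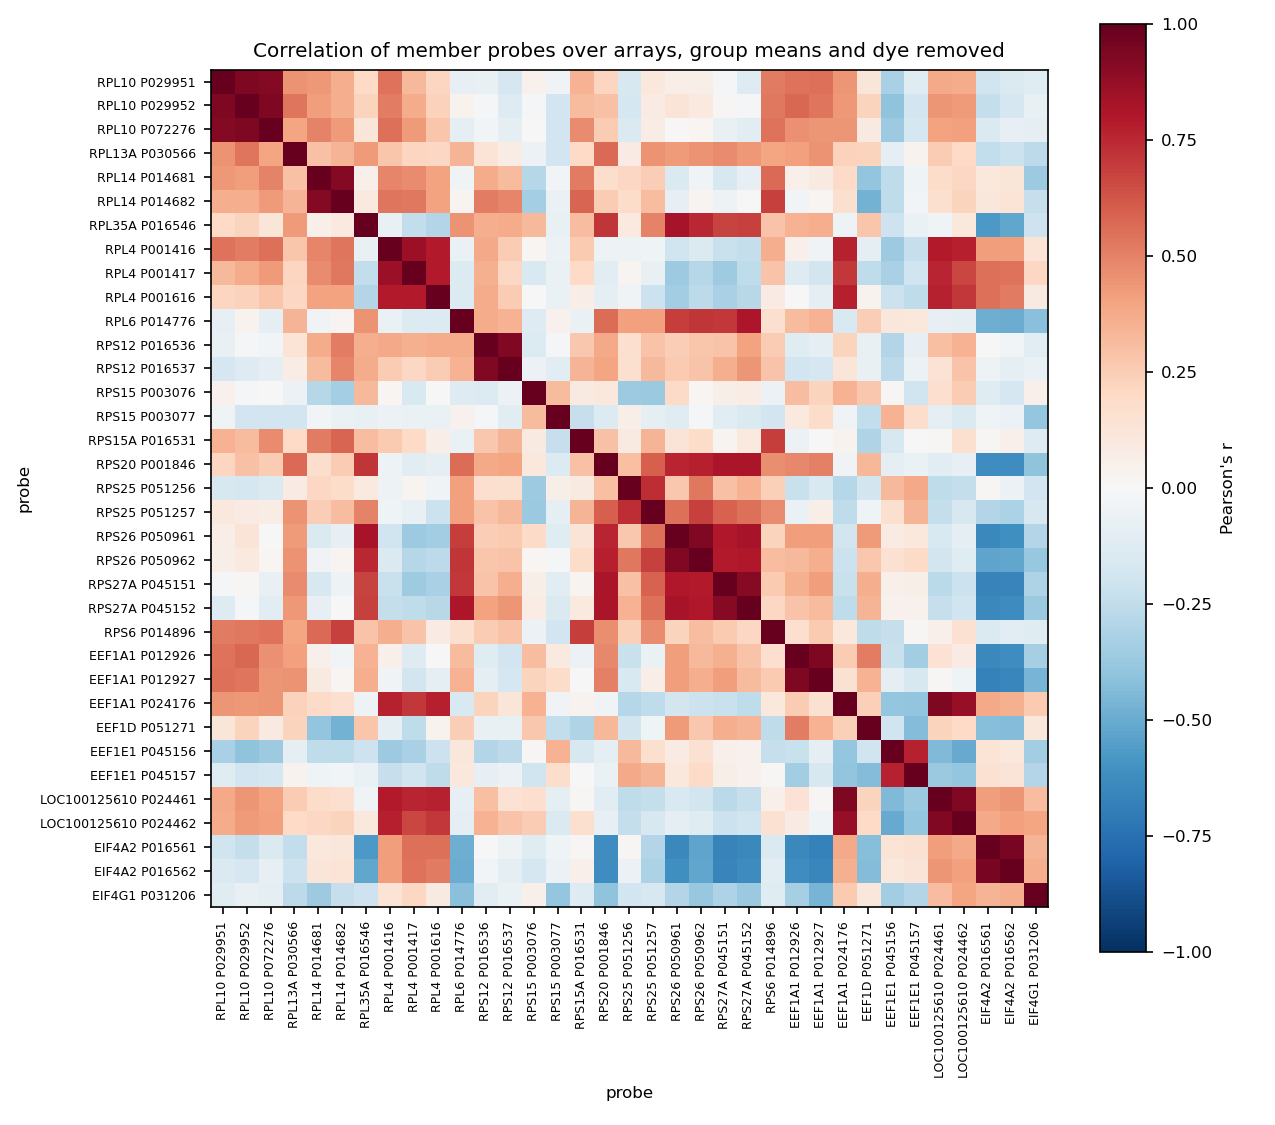
Pearson's r (colour scale) between all pairs of 35 member probes over the arrays, after removing group means and dye, with probes ordered by role on both axes. Red blocks off the diagonal mark members that moved together on the same arrays, such as RPS26 with RPS27A, and the blue bands of EIF4A2 mark its negative correlations of down to -0.67.

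Among 433 named genes outside the members with a value on every array, IGFBP6, an insulin-like growth factor binding protein, was most like the members' median on each array (r = 0.65 over 41 arrays). RPSA, the laminin receptor that is also a small subunit protein, followed at 0.63 and CYBA, a subunit of the phagocyte oxidase, at 0.62. The most opposed were PPIA, cyclophilin A, at -0.70 and ATP1B1, a sodium pump subunit, at -0.64. These correlations share the arrays' dyes and groups, and with both removed they were 0.60, 0.35, 0.51, -0.65 and -0.52.

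Right against left amygdala called 0 of 37 members with limma, where 0.201% of all tested probes were called, and 7 members had an unadjusted p below 0.05, all higher on the right, against 6.15% of all probes upward. The members' median difference was 0.15 against 0.00 over all probes. RPL4, with the probe A_70_P001616, stood at 0.53 ± 0.16 and RPS6 at 0.30 ± 0.09 (limma, adjusted p = 0.149 and 0.169). The lowest p values downward belonged to the dim RPS15 probe A_70_P003076, at -1.21 ± 0.65 on 30 arrays, and to EEF1D, at -0.14 ± 0.13 (limma, adjusted p = 0.454 and 0.672). EEF1D turned to 0.06 in male arrays alone. The unadjusted RPL4 means did not show this size, at 0.16 ± 0.36 on right arrays (SD, n = 20) and 0.07 ± 0.42 on left arrays (n = 21). In the fit the side difference carries the dye estimate, and without a dye term the members' median was 0.03, with 5 members called and 557 of all 12930 probes.

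More members were called between the dyes than between the sexes or treatments. The dye difference was estimated from GnRHa male and left control male arrays alone, as every other group had a single dye. The rarer dye was on 2 of 6 left and 2 of 6 right GnRHa male arrays and on 1 of 5 left control male arrays. Within each of these groups every array came from another animal, so the dye difference is also one between animals. Between samples in Cy5 and samples in Cy3, 8 of 37 members were called, all lower in Cy5, where 7.67% of all tested probes were called and 3.17% were lower. RPL14, with the probe A_70_P014682, had a lowest, median and highest log2 ratio of -0.61, -0.10 and 0.55 in Cy5 and of -0.13, 0.29 and 0.69 in Cy3, a fitted difference of -0.57 ± 0.11 (limma, adjusted p = 0.00179). Its other probe stood at -0.59 ± 0.11, RPL4 at -0.60 ± 0.16 and -0.38 ± 0.11, EIF4A2 at -0.45 ± 0.15 and -0.44 ± 0.14, and RPS6 at -0.32 ± 0.10, all called. All 12 large subunit probes lay lower in Cy5, while EEF1D stood at 0.04 ± 0.13 and RPL6 at -0.02 ± 0.10. Taken over both sides, the dye differed little between the groups compared, with 6 of 12 GnRHa male arrays in Cy5 against 5 of 9 control male arrays and with 5 of 10 in both female groups. It differed between the sides, as most left arrays were in Cy3 and most right arrays in Cy5. The left control male array with RPL14 at -0.61 was the only one of its group in Cy5.

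**Figure D5:**
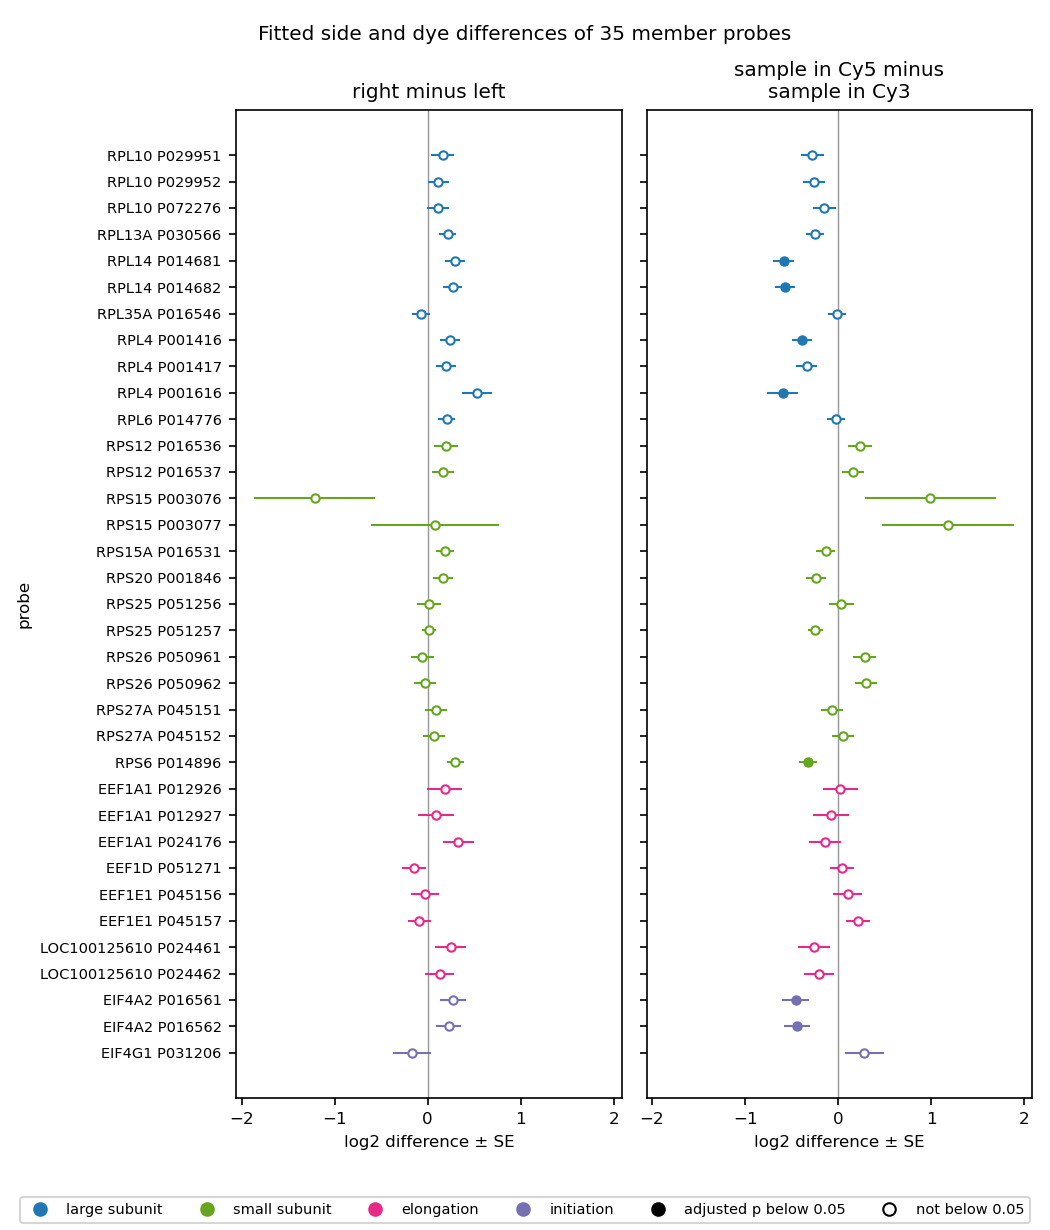
Fitted log2 difference with its SE (horizontal axis, the same scale in both panels) of 35 member probes between right and left arrays and between samples in Cy5 and samples in Cy3, coloured by role, with filled points for an adjusted p below 0.05. The 7 filled points all lie below 0 in the dye panel, and none is filled in the side panel.

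Other genes of the pathway were few on the array. Of 24 genes of translation control 2 were tested, PABPC1, which binds the tails of messages, and YBX1, a message packaging protein, and 0 were called in any of the 6 comparisons. Of 14 genes of the integrated stress response, through which cells lower initiation under stress, 3 were tested (DDIT3, HSPA5 and XBP1) and 0 were called, with HSPA5 at -0.33 in GnRHa against control males and -0.47 in control females against control males (limma, adjusted p = 0.348 and 0.111). Of 16 other transcripts with a pyrimidine tract at the start 4 were tested and 0 were called. All 4, RACK1, TPT1 and VIM among them, lay lower in GnRHa males, with a median of -0.17. Of the aminoacyl-tRNA synthetases NARS and SARS were tested and neither was called. Genes of ribosome biogenesis and of the mitochondrial ribosome had no tested probe.

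A further 8 probes for 6 genes lay outside the naming rule but belong to translation by RefSeq, among them EIF3A (2 probes), RACK1, RPL32, RPL34 (2 probes) and RPSA. None was called in the 6 comparisons with limma. In GnRHa against control males they lay on both sides of 0, 4 higher and 4 lower, from -0.28 for RPSA to 0.30 for an EIF3A probe, with a median of -0.01.

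In the authors' deposited table, which sets each of the 8 groups against the pool over its own arrays, 2 of 37 members were called by the authors' adjusted p, both in left GnRHa females, where 5.75% of all probes were. RPL6 stood there at -0.34 (the authors' adjusted p = 0.0244) and RPS27A at -0.31 (0.0175) in the authors' deposited table. In the other 7 groups the authors' deposited table called 0 members: among all probes it called 0.446% in right GnRHa females, 0.453% in left control females, 0.646% in left control males and 0 in the remaining 4. Its fold changes correlated across the 15008 probes at 0.28 to 0.52 with the means of the arrays used here and at 0.41 to 0.62 with the means of all deposited columns, and probes are not independent replicates.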

How the data were processed

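Per the labels, total RNA from the left or right amygdala was set against a pool of such RNA on 2-colour Agilent arrays, in both dye orientations. The submitters' processing notes name Agilent Feature Extraction 9.1. The deposited values were log2 ratios per probe and array. Background correction, normalization and direction are not given in the sources used here. The authors also deposited, per group, log2 fold changes against the pool, mean log2 brightness and adjusted p-values, in limma's column layout per the file headers.

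Of 56 arrays, 15 whose spike-in slope was below 0.5 in size were left out, and 3 with a negative slope were turned and given the opposite dye. Slopes of those left out reached at most 0.208 in size, and those of the 41 arrays kept lay between 1.13 and 1.26. Spots of a probe were averaged. Probes with 2 or more values in all 8 groups were fitted in limma 3.58.1 (R 4.3.3, statmod 1.5.0) with group means, dye and the animal as a random block (correlation 0.147), and p-values were adjusted by Benjamini-Hochberg over 12915 probes, 2-sided, with a threshold of 0.05. The fit was tested on simulated data. Tables were made in Python 3.11.15.

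Members, gene lists and comparisons were chosen with earlier results of these data known. Named are all members past the threshold, the 2 of lowest p in each direction in each comparison, and the brightest probe of RPS6, RPL14, EEF1A1, EEF1D, EIF4A2 and EIF4G1; others are named because a count or a correlation set holds them, after their values were seen. All 37 probes were matched to RefSeq gene entries by symbol, gene number or accession. Alternatives were other sets of arrays, the dye term, quantile normalization, array weights, the twin pair as a block, and leaving out each array in turn. P-values measure the spread between these arrays. Values of some members are not reported here, although the counts over all members include them.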

Additional observations from a re-analysis of the deposited data

Results flagged for a closer look

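Among the 16 probes described by name, 124 groups of 4 to 6 arrays were searched for an array far from the others of its group, by Dixon's criterion, and 7 had one. Chance gives about 5% of groups. Both RPL14 probes stood at -0.61 on the left array of control male replicate 1, the only one of that group with the sample in Cy5, whereas the other 4 arrays lay at 0.45 or above with A_70_P014681. RPS6 stood at -0.41 on the left array of GnRHa female replicate 5, the lowest of 5. RPL13A stood at 0.69 on the left array of control female replicate 4 and RPL10 (A_70_P029952) at 0.43 on the right array of control female replicate 4, each the highest of 5. RPS12 (A_70_P016537) stood at 0.47 on the right array of control male replicate 2, the highest of 4. The dim RPS15 probe A_70_P003077 stood at 0.95 on the left array of GnRHa female replicate 3, the highest of 5.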

How the results depend on the processing

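The 2 members called between control females and control males became 0 with all 56 columns, without 4 arrays far out on the first principal component, with quantile normalization or with only the groups compared, and 1 without the turned arrays or without a dye term. Leaving out each array in turn gave 0 to 2, with 0 without control male right 2 or 3, control male left 4, control female right 2 or control female left 6. On the left without GnRHa the 3 called became 0 with all 56 columns, 0 without the arrays far out and 1 with only the groups compared, and ran over 1 to 4 with an array left out (1 without control male left 3 or control female left 6). On the left with GnRHa the 1 called became 0 with all 56 columns, without the turned arrays, without the arrays far out or with the turned arrays' dye as labelled, and 3 with array weights, and ran over 0 to 2 with an array left out. These left-side alternatives and the labelled dye were chosen after seeing the data. For GnRHa in males the 0 called became 2 with array weights, where 95 of all probes were called, and 0 to 3 with an array left out (3 without control male left 1, 2 without control male right 5). With the twin pair as a random replicate block, 1 member was called in males (RPL14 at -0.40, limma adjusted p = 0.0441, 62 of all probes), and with the pair as a fixed block 0; the block changed no other count of members by more than 1.5 times. Right against left called 5 members without a dye term, where 557 of all probes were called, and the members' median was then 0.027, as against 0.028 with all 56 columns. EEF1D turned sign between the sides, at 0.0061 with array weights and 0.057 in male arrays alone, a choice made after seeing the data, and ran over -0.24 to 0.041 with an array left out. RPS15 (A_70_P003077) for GnRHa in females stood at 0.25 with all 56 columns. The cause of these changes was not tested. Over all results and alternatives other than leaving out an array, 38 were weaker, 7 were stronger, 3 single probes turned sign and 2 medians moved by more than the spread between arrays. Weaker or stronger means that a probe lost or gained its call, or that a count of members called changed by more than 1.5 times or to or from 0. The other 505 kept their side of the threshold, held a count within 1.5 times or moved by less than that spread. Among these 505, 3 medians near 0 turned sign: GnRHa in females at -0.019 and sex without GnRHa at 0.0029 without the arrays far out, and sex without GnRHa at 0.00082 with array weights. The values used hold no signal over background, so what dim probes such as those of RPS15 and EEF1D could show was not judged.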
